A study of Mus musculus with 48 samples.

Results

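Type I interferon response genes were followed in the thoracic mammary gland of aging transgenic mice. The 9 genes, Ifit1, Ifit2, Ifit3, Ifi44, Isg15, Irf7, Gbp3, Rsad2 and Usp18, were chosen by symbol, and each has 1 row among the 55487 genes of the deposited table. All 9 passed the filter for testing (at least 1 TPM in at least 3 libraries), which 20209 genes passed, and none was at 0 in any library. TPM are transcript abundances corrected for length and scaled so that every library has the same total.

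The study holds 48 libraries in 16 groups of 3, all from mice with the MMTV-rtTA transgene. It makes an activator protein that works in the presence of doxycycline, and its viral promoter is active mainly in mammary epithelium, so a responder gene is switched on in a part of the gland's cells. In the Esr1 model the responder is tet-op-Esr1, which encodes estrogen receptor alpha. In the CYP19A1 model it is tet-op-CYP19A1, the gene of aromatase, which turns androgens into estrogens. Each model has glands with 1 week of induction at 12 and at 18 months of age, with 6 or 12 months of induction at 24 months, and with 18 months of induction at 30 months. Uninduced glands with the same transgenes were taken at 12, 18 and 24 months. There are no uninduced glands of 30 months, and no group without a responder transgene. All Esr1 libraries come from one model and all CYP19A1 libraries from the other, so a difference between models cannot be told apart from a difference in genetic background, which the labels do not describe. A pairing of age and induction that both models share is called a stratum, and there are 8.

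Type I interferons are secreted when a cell senses foreign or misplaced nucleic acid. They bind the receptor made of Ifnar1 and Ifnar2, and the signal passes to transcription factors that bind interferon-stimulated response elements in the promoters of target genes. The products of these genes block viral RNA and protein synthesis, tag proteins and tune the signal itself, and a low level of them is present in many tissues without infection.

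An interferon-stimulated response element is built on the letters GAAANNGAAA. This motif, or TTTCNNTTTC as it reads on the other strand, was searched in the RefSeq promoter windows of build GRCm38.p6, which run from 250 bases before to 50 after a gene's start, with overlapping matches counted. It was in 1131 of all 32851 windows (3.44%), and 1079 of 27025 genes (3.99%) had it in a window. Of the 8 genes of the group in that table, 5 had it, namely Ifit1, Ifit3, Isg15, Gbp3 and Rsad2. Ifit2, Ifi44 and Irf7 had no match, which says only that these letters are not in these windows. Among other interferon-stimulated genes, 12 of 39 had it. The 5 windows are printed because they show how the element is placed in genes that are described next, and that of Ifit3b is added because Ifit3b is the near-identical neighbour of Ifit3. Each reads 5′ to 3′ on the gene's own strand with matches in capitals. Ifit1 lies at chr19:34640639-34640938 (plus strand), Ifit3 at chr19:34583279-34583578 (plus), Ifit3b at chr19:34607707-34608006 (plus), Isg15 at chr4:156200769-156201068 (minus), Gbp3 at chr3:142559794-142560093 (plus) and Rsad2 at chr12:26456403-26456702 (minus).
Ifit1: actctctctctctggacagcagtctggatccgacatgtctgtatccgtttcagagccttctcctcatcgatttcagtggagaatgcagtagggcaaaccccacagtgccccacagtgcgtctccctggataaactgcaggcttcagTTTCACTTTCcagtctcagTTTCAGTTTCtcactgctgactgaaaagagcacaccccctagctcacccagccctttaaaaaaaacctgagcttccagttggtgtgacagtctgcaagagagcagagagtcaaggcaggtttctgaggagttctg
Ifit3: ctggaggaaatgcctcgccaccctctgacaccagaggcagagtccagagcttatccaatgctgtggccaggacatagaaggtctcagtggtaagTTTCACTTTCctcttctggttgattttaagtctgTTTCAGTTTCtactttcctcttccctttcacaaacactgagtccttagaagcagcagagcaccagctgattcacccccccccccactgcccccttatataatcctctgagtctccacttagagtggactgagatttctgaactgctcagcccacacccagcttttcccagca
Ifit3b: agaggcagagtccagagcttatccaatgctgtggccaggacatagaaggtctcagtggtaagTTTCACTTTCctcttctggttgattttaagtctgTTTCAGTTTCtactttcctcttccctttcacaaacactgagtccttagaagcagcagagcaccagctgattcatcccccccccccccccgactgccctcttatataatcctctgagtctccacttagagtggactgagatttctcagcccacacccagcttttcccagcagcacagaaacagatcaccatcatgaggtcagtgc
Isg15: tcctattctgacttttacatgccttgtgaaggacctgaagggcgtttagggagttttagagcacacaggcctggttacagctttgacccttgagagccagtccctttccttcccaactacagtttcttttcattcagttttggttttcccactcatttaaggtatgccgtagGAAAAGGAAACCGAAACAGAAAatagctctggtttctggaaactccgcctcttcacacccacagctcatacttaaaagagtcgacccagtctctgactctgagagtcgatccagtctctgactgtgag
Gbp3: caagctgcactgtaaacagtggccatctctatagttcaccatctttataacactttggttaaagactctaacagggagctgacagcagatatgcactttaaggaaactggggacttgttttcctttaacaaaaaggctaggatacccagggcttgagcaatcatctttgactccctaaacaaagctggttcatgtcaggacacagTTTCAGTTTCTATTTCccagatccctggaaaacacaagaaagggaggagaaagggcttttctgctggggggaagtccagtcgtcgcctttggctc
Rsad2: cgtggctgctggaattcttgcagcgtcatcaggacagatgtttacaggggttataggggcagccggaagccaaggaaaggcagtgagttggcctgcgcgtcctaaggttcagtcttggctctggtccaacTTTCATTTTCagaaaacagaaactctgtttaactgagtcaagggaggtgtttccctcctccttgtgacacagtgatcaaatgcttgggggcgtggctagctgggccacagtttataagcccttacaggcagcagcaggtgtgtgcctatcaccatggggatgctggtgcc

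Ifit1 holds 2 matches, which begin 104 and 85 bases before its start. Ifit3 holds 2, at 156 and 122 bases before the start, and Ifit3b holds 2, at 188 and 154. Isg15 holds 3 that overlap, at 78, 72 and 66 bases before the start. Gbp3 holds 2 that overlap, at 45 and 39 bases, in 1 of its 2 windows, and Rsad2 holds 1 at 120 bases. A match is a description of the letters and not a measured binding site.

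The labels state at least 50 M reads of 75 bp per library, but TPM hide the depth behind a value, and counting intervals cannot be computed from them. The number of genes at 1 TPM or above was 11028 in the poorest and 17605 in the richest library. Reads of ribosomal RNA took 15.6% to 67.2% of TPM in 9 libraries (7 CYP19A1, 2 Esr1) and 0.016% to 4.54% in the other 39, which lowers the TPM of all other genes in the 9. All 3 CYP19A1 libraries of 1 week at 12 months are among them. Median-of-ratios rescaling of TPM offsets this, and values after rescaling are given beside many of those from the deposited TPM. Esr1 transcript was 6.39 to 25.9 TPM in induced and 8.88 to 16.3 TPM in uninduced glands of the Esr1 model, against 6.14 to 20.98 TPM in induced and 5.61 to 17.6 TPM in uninduced CYP19A1 glands. These ranges overlap, so the total Esr1 level does not tell the groups apart. Mouse Cyp19a1 never passed 0.29 TPM, and it does not measure a human transgene. No library was a copy of another, and the highest correlation between a pair of libraries was 0.98. The labels call the libraries biological replicates without naming mice, and what the p-values measure is the spread between libraries.

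The members were of low to middling abundance. Irf7, the transcription factor that drives interferon alpha genes and amplifies the response, had the highest mean over all libraries, 8.11 TPM, followed by Gbp3 with 7.36 TPM and Ifit3 with 6.10 TPM. Ifit1 had the lowest, 2.21 TPM. The highest group mean was in Esr1 glands after 1 week at 12 months for 8 of the 9 genes, and for Rsad2 it was in Esr1 glands after 1 week at 18 months. The ratio of the highest to the lowest group mean ran from 2.29 for Usp18 to 8.44 for Ifi44. Neighbouring groups in that order overlapped in all 15 of 15 cases for 7 genes, in 14 for Ifit3 and in 13 for Rsad2, so the ranks of neighbouring groups mostly cannot be told apart. In bulk tissue, fewer cells of a type and less RNA per cell cannot be told apart.

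**Figure D1:**
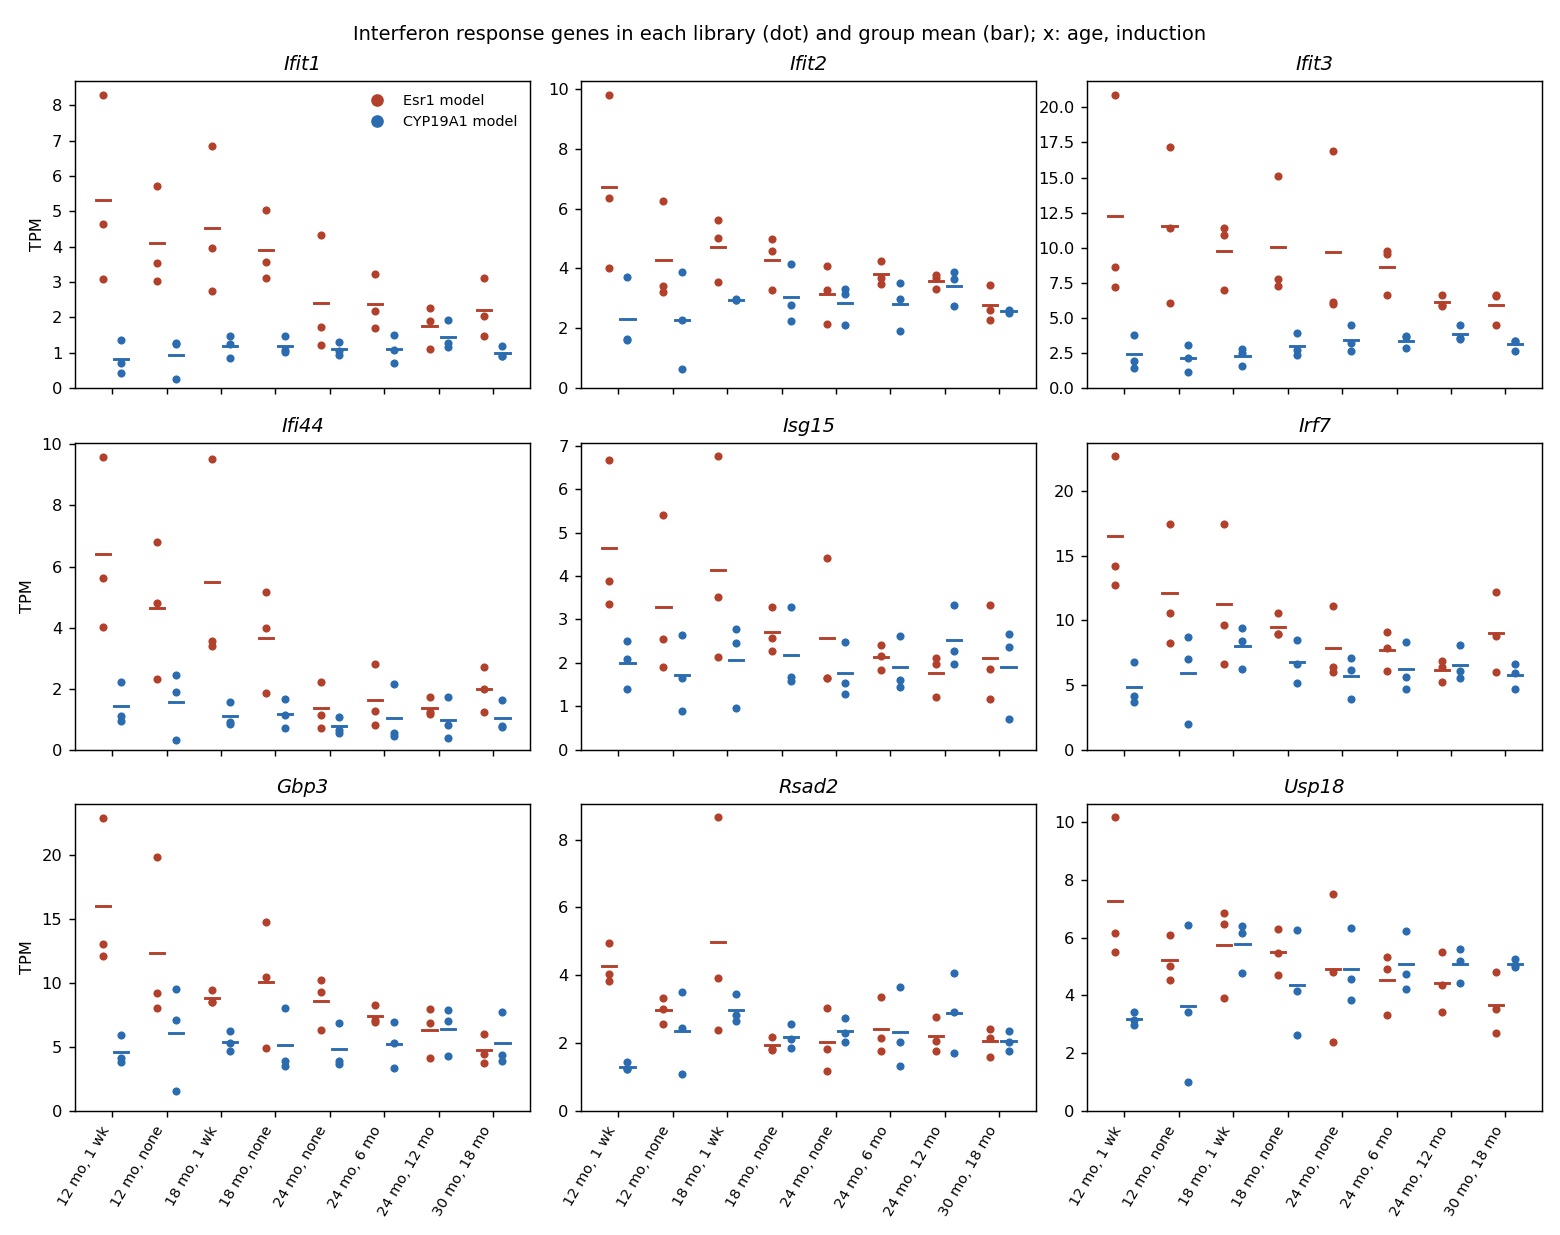
TPM of the 9 genes in each of the 48 libraries (dots, linear TPM axis from 0), by age and induction, with the group means as bars and the Esr1 model left of the CYP19A1 model. Ifit3 lies between 4.49 and 20.9 TPM in Esr1 glands, above every CYP19A1 library (1.14 to 4.48 TPM), while the models overlap for the other 8 genes.

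The models were compared with each other without and with induction. Of the 9 genes, 4 were higher in uninduced Esr1 than in uninduced CYP19A1 glands (Ifit1, Ifit3, Ifi44 and Gbp3) and none was lower, averaged over 12, 18 and 24 months. Of all genes tested, 1.97% were higher by the same rule (limma, adjusted p under 0.05). In induced glands 6 were higher, the same 4 with Ifit2 and Irf7, where 11.4% of all genes were higher. The median log2 difference of the 9 was 0.62 in uninduced glands and 0.51 in induced glands, against 0.10 and 0.11 for all genes tested. With rescaled TPM the medians were 0.49 and 0.35 for the 9, and 0.007 and -0.016 for all genes. When the libraries rich in ribosomal RNA were left out, Ifit1 and Ifit3 were the genes that still passed, in uninduced glands and, with the emptied stratum of 1 week at 12 months dropped, in induced glands. Ifit3 then differed by 1.27 and 1.04 and Ifit1 by 0.93 and 0.65.

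The IFIT proteins bind viral RNA and hold back its translation. Ifit3 (chr19:34583531-34588731, plus strand, mm10), which stabilises IFIT complexes, ranged over 4.49, 7.25 and 20.9 TPM (lowest, median and highest) in 24 Esr1 libraries, against 1.14, 2.96 and 4.48 TPM in 24 CYP19A1 libraries. Every Esr1 library lay above every CYP19A1 library, which held for 14 of 20209 genes (0.0693%). With rescaled TPM the ranges were 5.42 to 19.6 in Esr1 and 1.27 to 5.05 in CYP19A1 libraries and did not overlap either. On the log2(TPM + 1) scale Ifit3 was higher in Esr1 glands by 1.5 ± 0.20 (SE) without induction, with a limma adjusted p of 1.9e-06, and by 1.2 ± 0.16 with induction, with a limma adjusted p of 5.29e-07.

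In uninduced glands at 12 months Ifit3 had 11.4, 17.2 and 6.05 TPM in Esr1 libraries, against 1.14, 3.08 and 2.17 TPM in CYP19A1 libraries. At 24 months it had 6.02, 16.9 and 6.11 TPM in uninduced Esr1 libraries, against 3.20, 4.47 and 2.63 TPM in uninduced CYP19A1 libraries. Replicate 2 was the highest library of these Esr1 groups, and the other libraries were still above all CYP19A1 libraries of their age. After 18 months of induction at 30 months the deposited values were closer, 6.62, 6.55 and 4.49 TPM in Esr1 against 3.39, 3.38 and 2.62 TPM in CYP19A1 glands. The Esr1 library of 4.49 TPM has 50.3% of its TPM on ribosomal RNA, which lowers its other values.

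Ifit1 (chr19:34640871-34650009, plus), which captures RNA whose cap lacks the host's methylation, had 1.12, 3.10 and 8.29 TPM as lowest, median and highest value in Esr1 libraries, against 0.25, 1.13 and 1.92 TPM in CYP19A1 libraries. In 18 of 24 Esr1 libraries it was above every CYP19A1 library, and in 13 with rescaled TPM. The log2 difference was 1.05 ± 0.18 without induction, with a limma adjusted p of 0.000111, and 0.90 ± 0.14 with induction, with a limma adjusted p of 9.4e-06. Ifit2 (chr19:34550694-34576419, plus), another RNA-binding IFIT that promotes apoptosis in cultured cells, ranged from 2.13 to 9.80 TPM (median 3.68) in Esr1 libraries, against 0.63 to 4.14 TPM (median 2.87) in CYP19A1 libraries. Of the 24 Esr1 libraries 8 exceeded every CYP19A1 library, and 2 with rescaled TPM. Its difference was 0.44 ± 0.13 with induction, with a limma adjusted p of 0.0181, and 0.42 without, with an adjusted p of 0.169 (0.34 and 0.023 with rescaled TPM).

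Ifi44 (chr3:151730922-151749960, minus), an interferon-induced cytoplasmic protein that slows growth of human cells, had 0.71, 2.51 and 9.60 TPM as lowest, median and highest value in Esr1 libraries, against 0.31, 0.94 and 2.44 TPM in CYP19A1 libraries. The upper 12 Esr1 libraries were above all CYP19A1 libraries and the others overlapped them, and with rescaled TPM 4 were above all. The log2 difference was 0.87 ± 0.22 without induction, with a limma adjusted p of 0.021, and 0.87 ± 0.17 with induction, with a limma adjusted p of 0.000591. Gbp3 (chr3:142560026-142573209, plus), a GTPase of the guanylate-binding family that acts on intracellular pathogens, ranged from 3.79 to 22.9 TPM (median 8.40) in Esr1 libraries, against 1.53 to 9.55 TPM (median 5.0) in CYP19A1 libraries. Its difference was 0.86 ± 0.22 without induction, with a limma adjusted p of 0.0227, and 0.51 ± 0.17 with induction, with a limma adjusted p of 0.0441. Both calls in uninduced glands rest on single libraries: without replicate 2 of the uninduced Esr1 glands of 12, 18 or 24 months, or replicate 1 of the uninduced CYP19A1 glands of 18 months, neither gene passed in limma (adjusted p up to 0.0662 for Ifi44 and 0.0786 for Gbp3). Gbp3 was also lost without replicate 2 of the uninduced CYP19A1 glands of 18 months or replicate 1 of uninduced CYP19A1 glands of 24 months, and in induced glands its adjusted p ran from 0.0289 to 0.0872 over single omissions.

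For Irf7 (chr7:141262706-141266481, minus) the range was 5.21 to 22.7 TPM (median 8.95) in Esr1 libraries, against 2.01 to 9.40 TPM (median 6.16) in CYP19A1 libraries. It was higher by 0.54 ± 0.15 with induction, with a limma adjusted p of 0.014, while the difference without induction, 0.62, had an adjusted p of 0.0756.

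The other 3 genes did not pass in either comparison. Isg15 (chr4:156199424-156200818, minus), a ubiquitin-like protein that is attached to other proteins, differed by 0.39 without and 0.30 with induction, with limma adjusted p of 0.3 and 0.199. Usp18 (chr6:121245906-121270917, plus), the protease that removes Isg15 and also restrains the interferon receptor, differed by 0.29 and 0.04, with limma adjusted p of 0.415 and 0.882. Rsad2 (chr12:26442746-26456452, minus), the enzyme viperin that makes an RNA chain terminator, differed by 0.002 and 0.29, with limma adjusted p of 0.996 and 0.118. With rescaled TPM the direction turned for Rsad2 without induction (-0.10) and for Usp18 with induction (-0.11), neither past the threshold. Medians in Esr1 and CYP19A1 libraries were 2.34 and 2.03 TPM for Isg15, 4.97 and 4.77 TPM for Usp18, and 2.42 and 2.21 TPM for Rsad2. The model ranges overlapped broadly for these 3, with 7, 4 and 2 Esr1 libraries above every CYP19A1 library (3, 4 and 1 with rescaled TPM).

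By stratum, the Esr1 mean of a gene was the higher in 8 of 8 strata for Ifit1, Ifit2, Ifit3 and Ifi44, in 7 for Isg15 and Irf7, in 6 for Gbp3, in 5 for Rsad2 and in 3 for Usp18. The 3 Esr1 libraries lay above the 3 CYP19A1 libraries in all 8 strata for Ifit3 and in 6 for Ifit1, and in 2 for Gbp3, which had 6 with rescaled TPM. All 9 genes did so after 1 week at 12 months, as did 67.7% of all genes, and the 3 CYP19A1 libraries of that stratum are rich in ribosomal RNA. In uninduced glands of 18 months 4 genes did (Irf7, Ifi44, Ifit1 and Ifit3), against 3.63% of all genes, and in uninduced glands of 12 months 2 did (Ifit1 and Ifit3), against 5.53%. After 1 week at 18 months 5 did, against 25.0% of all genes. At 24 months Ifit3 did without induction (3.9% of all genes) and after 12 months (4.66%), and Ifit1 and Ifit3 did after 6 months (4.59%). At 30 months Ifit1 and Ifit3 did (1.71% of all genes). Usp18 was lower there in Esr1 glands without overlap in the deposited TPM (24.6% of all genes were lower). It had 4.83, 3.54 and 2.69 TPM in Esr1 glands, against 5.06, 4.97 and 5.26 TPM in CYP19A1 glands. The library of 2.69 TPM has 50.3% of its TPM on ribosomal RNA, and with rescaled TPM the Usp18 libraries of the models overlap.

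**Figure D2:**
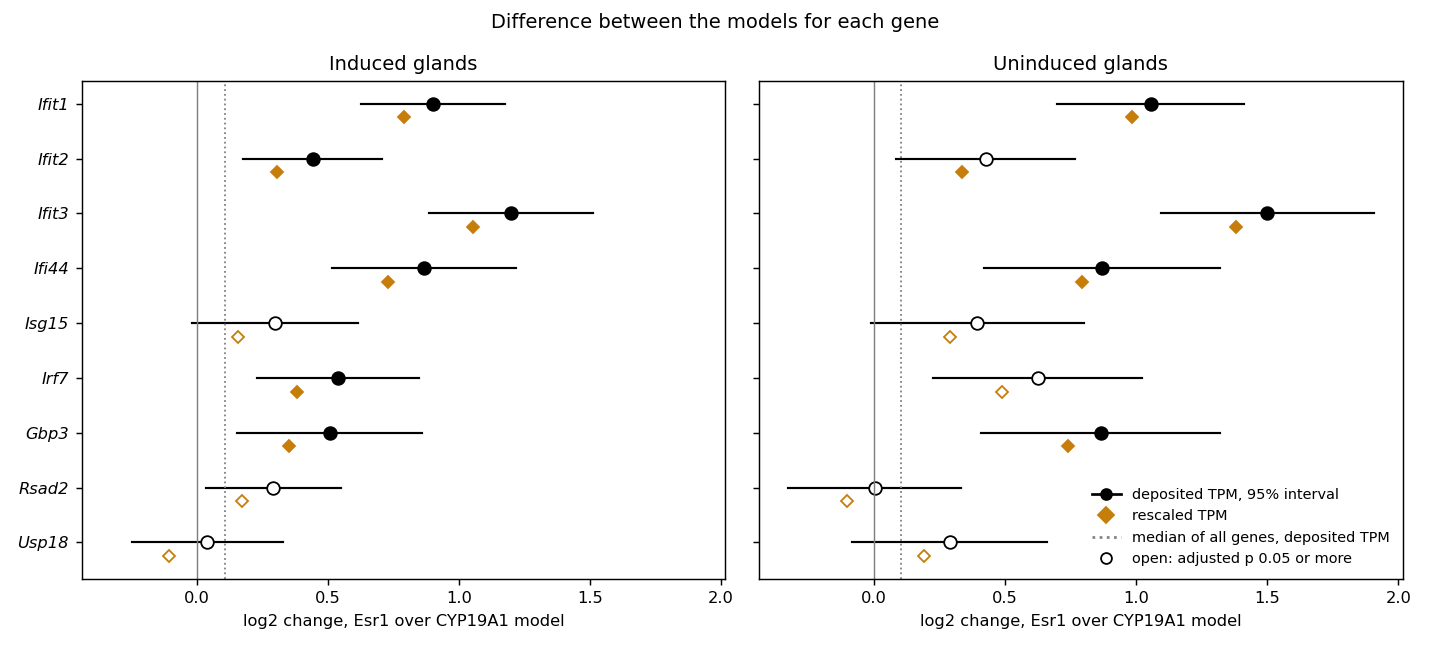
Log2 difference between Esr1 and CYP19A1 glands for the 9 genes, in induced (left) and uninduced (right) glands, with 95% intervals, the value under rescaled TPM as diamonds and the median of all genes as a dotted line; open symbols did not pass. Ifit3 (1.2 and 1.5) and Ifit1 (0.90 and 1.05) are the furthest from 0, and Usp18 and Rsad2 are near 0 in at least 1 comparison.

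Averaged over all 8 strata, 7 of 9 genes were higher in Esr1 glands (19.2% of all genes were), all but Rsad2 and Usp18. Isg15, at 0.33 with a limma adjusted p of 0.0433, lost its call with rescaled TPM (adjusted p 0.149). The sample titles are built differently at 24 and 30 months than at 12 and 18 months, so the models were also compared within each. At 12 and 18 months all 9 genes were higher in Esr1 glands, where 44.0% of all genes were. With rescaled TPM 6 were, as were 3443 of all 20209 genes. At 24 and 30 months 2 of 9 were higher in the deposited TPM, where 1.92% of all genes were. These were Ifit3 by 0.89, with a limma adjusted p of 0.000605, and Ifit1 by 0.52, with a limma adjusted p of 0.0291. With rescaled TPM 3 were, as were 1707 of all 20209 genes. The call of Ifit1 there was lost in 9 of 24 omissions of a single library and without the libraries rich in ribosomal RNA (adjusted p 0.0735).

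The Esr1 model itself was compared between older (24 and 30 months) and younger (12 and 18 months) glands over all its groups, with induction time differing between the ages. Of the 9 genes, 8 fell in older Esr1 glands, as did 25.5% of all genes. With rescaled TPM 3 did (Ifit1, Ifi44 and Gbp3), as did 3590 of all 20209 genes. Ifi44 had 0.71, 1.24 and 2.81 TPM as lowest, median and highest value in 12 older Esr1 libraries, against 1.86, 4.41 and 9.60 TPM in 12 younger ones. It fell by 1.17 on the log2 scale with a limma adjusted p of 4.85e-05, and by 0.92 with rescaled TPM. Ifit1 ranged from 1.12 to 4.32 TPM (median 1.97) in older Esr1 libraries, against 2.76 to 8.29 TPM (median 3.77) in younger ones, and fell by 0.77 with a limma adjusted p of 0.000508. Gbp3 fell by 0.67, or 0.40 with rescaled TPM. Markers of several cell types moved in the same comparison: 7 of 8 T cell, 4 of 8 luminal epithelial, 2 of 6 fibroblast and 1 of 10 macrophage markers fell in older Esr1 glands, while 6 of 6 skeletal muscle and 4 of 7 B cell markers rose. Group medians of the summed T cell markers were 11.4 to 16.7 TPM in older and 29.5 to 50.8 TPM in younger Esr1 glands, and those of the luminal markers 236 to 423 TPM in older and 464 to 721 TPM in younger ones. The part of cell makeup in this fall was not tested. Usp18, at -0.38 with a limma adjusted p of 0.065, was the gene that did not pass. Ifit3, at -0.45 with a limma adjusted p of 0.0445, was lost in 15 of 24 omissions of a single library, Ifit2 in 4 and Isg15 in 1.

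In older against younger CYP19A1 glands 0 of 9 genes passed in limma, where 19.0% of all genes were higher and 0.579% lower. At an unadjusted p under 0.05 the count was 1, and leaving out single libraries gave 0 to 2. Ifi44 had 0.38 to 2.15 TPM (median 0.76) in older CYP19A1 libraries, against 0.31 to 2.44 TPM (median 1.12) in younger ones. Ifit3 had 2.62 to 4.48 TPM (median 3.46) in older against 1.14 to 3.94 TPM (median 2.45) in younger ones, and these ranges overlap. The change with age differed between the models for 7 of 9 genes, all but Isg15 and Irf7, as it did for 29.5% of all genes in that direction. With rescaled TPM the count was 0, and the median of all genes in this difference moved from 0.43 to 0.01, so the 7 calls rest on the scale of the deposited TPM.

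Within a model, induced glands were compared with the uninduced glands of the same age. None of the 9 genes passed in limma in any of the 8 such comparisons. The genes called were 0.0099% of all genes after 1 week at 12 months, 0.0% after 1 week at 18 months, 0.0% after 6 months and 0.00495% after 12 months in the Esr1 model. In the CYP19A1 model they were 0.0%, 0.0%, 0.0% and 0.0198% in the same order. At an unadjusted p under 0.05, 1 gene was counted over the 8 comparisons, Rsad2 after 1 week of Esr1 induction at 18 months. With 0 to 4 genes of the whole table called, these comparisons of 3 against 3 libraries set no limit on a small change.

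In the deposited TPM, Rsad2 was the gene whose induced and uninduced libraries most often stood apart. After 1 week it had 3.83, 4.03 and 4.95 TPM in induced Esr1 libraries of 12 months, against 3.00, 3.34 and 2.57 TPM in uninduced ones. At 18 months it had 8.67, 2.40 and 3.91 TPM in induced Esr1 libraries, against 2.17, 1.84 and 1.81 TPM in uninduced ones. All induced libraries exceeded all uninduced ones in both, as they did for 10.1% and 4.26% of all genes. The log2 change at 18 months was 0.89, with an unadjusted p of 0.0032 and a limma adjusted p of 1, and the value of 8.67 TPM was the highest of Rsad2 in the series. In CYP19A1 glands of 18 months Rsad2 had 3.45, 2.64 and 2.82 TPM after 1 week, against 2.12, 1.87 and 2.56 TPM without induction, again without overlap (2.12% of all genes). In those of 12 months it had 1.24, 1.23 and 1.46 TPM after 1 week, against 1.08, 3.51 and 2.46 TPM without, which overlap. Replicate 1 of the uninduced CYP19A1 glands of 18 months has 40.3% of its TPM on ribosomal RNA. With rescaled TPM the induced and uninduced Rsad2 libraries overlap in all of these 1-week comparisons, so the separations rest on the scale of the deposited TPM.

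In the deposited TPM the other 8 genes overlapped between induced and uninduced libraries in all 8 comparisons. After 1 week at 12 months in the Esr1 model all 9 estimates were above 0, with a median of 0.41 against 0.22 for all genes. Ifit1 there had 3.08, 4.64 and 8.29 TPM in induced libraries, against 3.03, 5.73 and 3.55 TPM in uninduced ones, and replicate 3 of the induced group was the highest. Without that library the median of the 9 was 0.14. In long-induced Esr1 glands the median change was 0.008 after 6 months and -0.22 after 12 months, against 0 and 0.09 for all genes. In the CYP19A1 model the 4 medians were 0.003, -0.006, 0.05 and 0.19, against -0.32, 0.09, -0.005 and 0.12 for all genes. The order of the models after 1 week at 12 months depends on the scale, since with rescaled TPM the median of the 9 was 0.17 in the Esr1 and 0.43 in the CYP19A1 model. The difference between the models in the 1-week response and in the long response was called for 0 of 9 genes in limma, and for 0.0% of all genes in both. At an unadjusted p under 0.05 the counts of the 9 were 1 and 0.

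By age, 0 of 9 genes passed in limma in any single comparison. Uninduced Esr1 glands of 18 against 12 months called 0.0% of all genes and those of 24 against 12 months 0.574%, and the matching CYP19A1 comparisons called 0.0099% and 4.24%. Esr1 glands induced for 18 months at 30 months, against those induced for 12 months at 24 months, called 0.139%, and the CYP19A1 glands 0.0%. The difference between the models in the change from 12 to 24 months called 0.0396%. The unadjusted p was under 0.05 for 2 genes in uninduced Esr1 glands of 24 against 12 months and for none in the others. In that comparison Ifi44 had 0.71, 2.22 and 1.13 TPM at 24 months, against 2.30, 6.79 and 4.81 TPM at 12 months, without overlap (8.61% of all genes were lower without overlap). Its log2 change was -1.22, with an unadjusted p of 0.00309 and a limma adjusted p of 0.2. All 9 estimates were below 0 there, with a median of -0.40 against -0.08 for all genes.

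Other age comparisons without overlap in the deposited TPM were few. Rsad2 had 2.17, 1.84 and 1.81 TPM in uninduced Esr1 glands of 18 months, against 3.00, 3.34 and 2.57 TPM at 12 months (4.17% of all genes were lower). Ifit2 had 2.52, 2.62 and 2.59 TPM in CYP19A1 glands of 30 months, against 3.89, 2.75 and 3.64 TPM at 24 months with 12 months of induction. Ifit3 had 3.39, 3.38 and 2.62 TPM there, against 4.48, 3.57 and 3.53 TPM. In that comparison 21.6% of all genes were lower without overlap. With rescaled TPM its Ifit3 libraries overlap, and those of Ifit2 are barely apart.

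**Figure D3:**
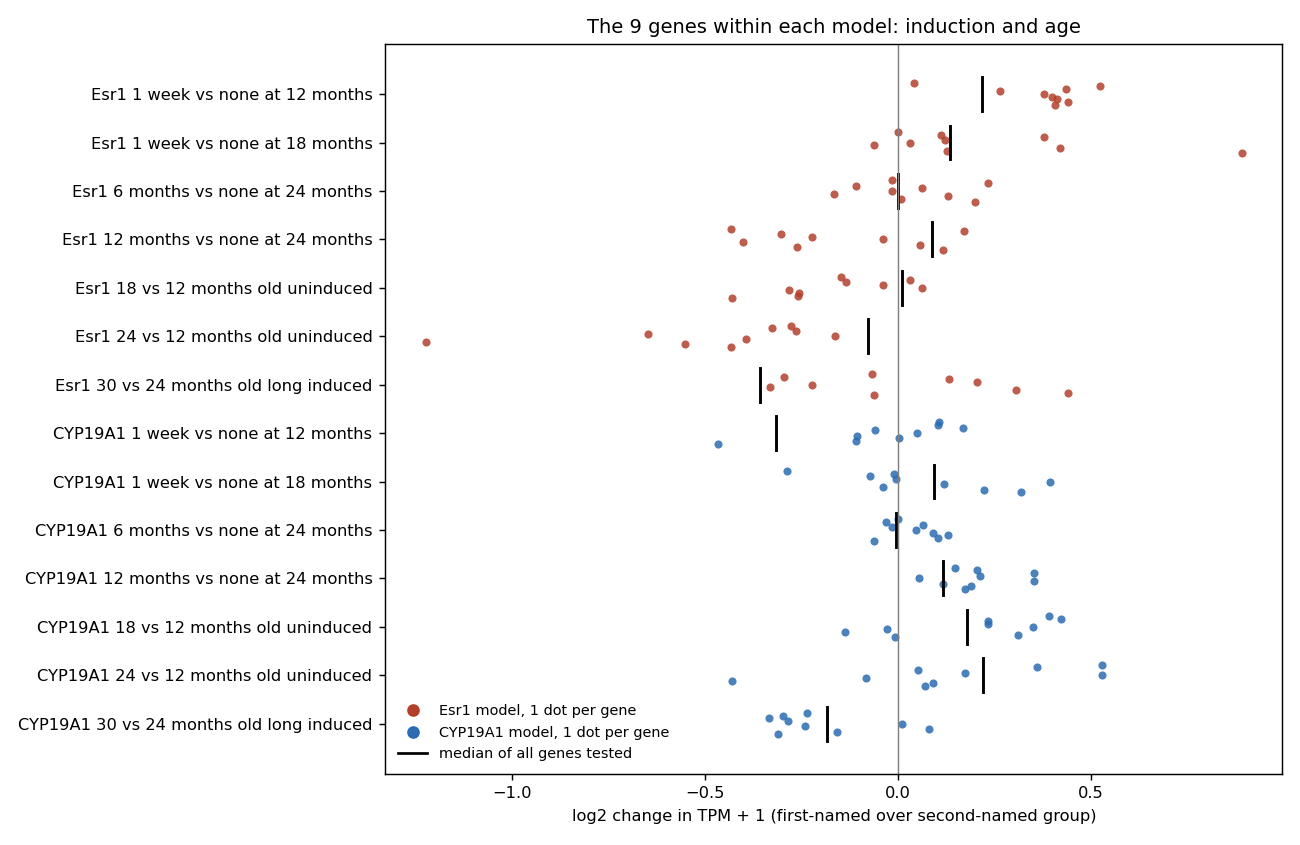
Log2 changes of the 9 genes in the induction and age comparisons within each model (points), with the median of all genes tested as a mark. None of the points passed the test, and Ifi44 at 24 against 12 months in uninduced Esr1 glands (-1.22) and Rsad2 after 1 week of Esr1 induction at 18 months (0.89) lie furthest from 0.

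In the deposited TPM the 9 genes varied together between libraries of the same group. Over 48 libraries the 36 pairs of genes had correlations of log2(TPM + 1) from 0.46 (Ifit3 with Rsad2) to 0.89 (Ifit1 with Ifit3), with a median of 0.70. After each group's mean was subtracted they ran from 0.29 (Ifi44 with Rsad2) to 0.81 (Ifit1 with Irf7), with a median of 0.61. The points share libraries and the fixed TPM total, which also moves genes together. In 5 of the 16 groups a single library was highest for all 9 genes: replicate 2 of uninduced Esr1 glands of 12 and of 24 months, replicate 3 of Esr1 glands after 1 week at 12 months, replicate 1 of Esr1 glands of 30 months and replicate 2 of uninduced CYP19A1 glands of 24 months. In each of these 5 groups that library also had the largest divisor of its group, the factor by which median-of-ratios rescaling divides a library. A typical gene thus had high TPM there too. In 12 groups a single library was highest for at least 6 genes. The lowest library was the same for all 9 genes in 2 groups, and 1 of these, replicate 1 of uninduced CYP19A1 glands of 12 months, has 67.2% of its TPM on ribosomal RNA. Both of these lowest libraries had the smallest divisor of their group. The mean of the 9 on the log2 scale spread by 0.10 to 1.32 within a group. These counts and correlations were not computed with rescaled TPM, and the part of library scale in them was not tested.

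**Figure D4:**
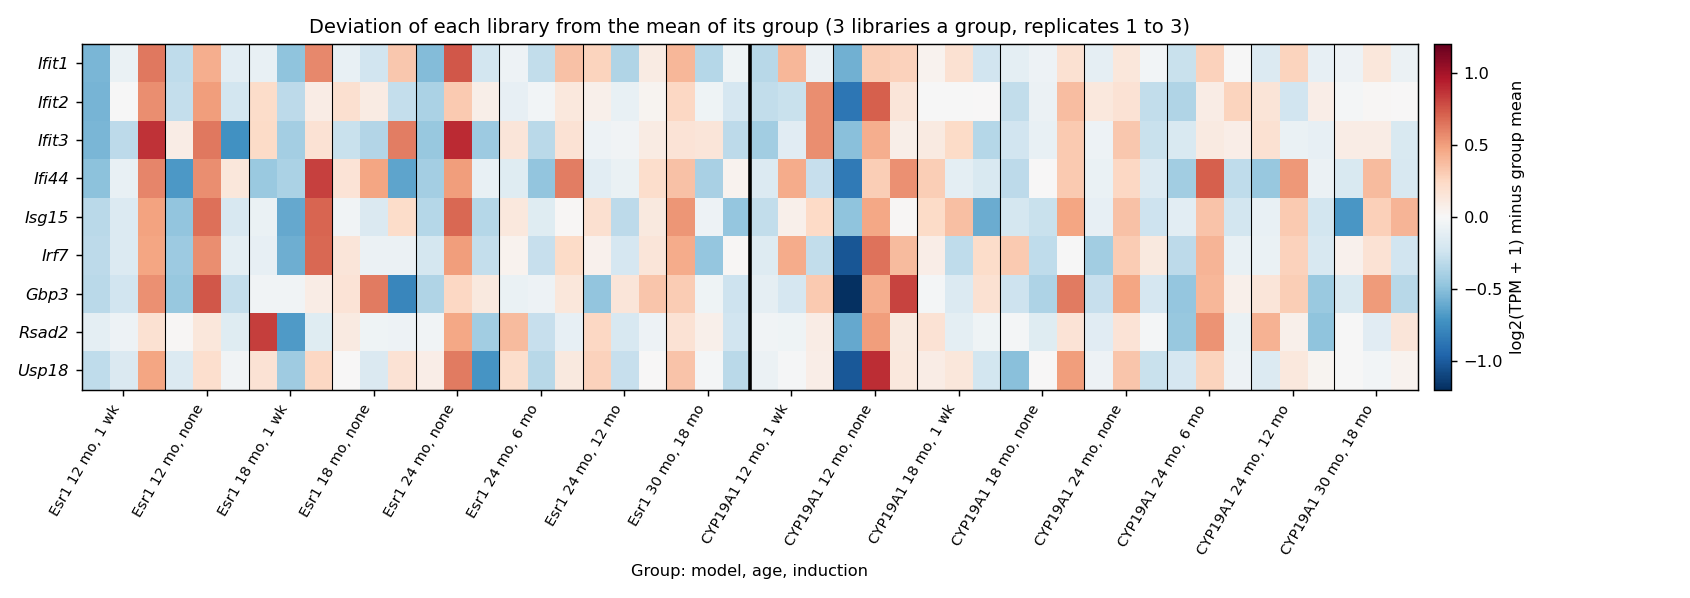
Deviation of each of the 9 genes (log2, from its group mean) in the 48 libraries, red above and blue below the mean. In the deposited TPM 1 library is highest for all 9 genes in 5 of 16 groups, such as replicate 3 of Esr1 glands after 1 week at 12 months.

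The library highest for the mean of the 9 was also the highest of its group for the summed TPM of T cell markers in 10 of 16 groups, of macrophage markers in 10 and of luminal epithelial markers in 11. The count was 10 for endothelial, 9 for neutrophil, 9 for B cell, 8 for basal epithelial, 8 for fibroblast and 7 for adipocyte markers. For the summed plasmacytoid dendritic cell markers the library highest for the 9 was the highest in 2 groups and the lowest in 10. That sum was 77.8 to 398 TPM in Esr1 and 44.0 to 381 TPM in CYP19A1 libraries. Siglech had at most 2.79 and 5.03 TPM of it, so the sum mostly reads other genes of the list. For the summed skeletal muscle markers the library highest for the 9 was the highest in 1 group and the lowest in 9. In Esr1 glands after 1 week at 12 months, replicate 3 had 848 TPM of muscle markers, replicate 1 had 4828 TPM and replicate 2 had 310 TPM. In uninduced Esr1 glands of 24 months, replicate 2 had 25849 TPM of muscle markers, against 14330 and 5994 TPM in the others, so the interferon genes were highest there in the library with most muscle RNA. All these sums are of deposited TPM, where a library with a large divisor is high for most genes. The counts were not repeated with rescaled TPM. The part of cell makeup and of library scale in the shared variation was not tested. The genes most like the mean of the 9 after group means were subtracted, over 48 libraries, were Xaf1 (r 0.93), Rtp4 (0.91), Oas1b (0.90), Slfn8 (0.90), Oasl2 (0.88), Trim30d (0.87), Trim30a (0.87), Zbp1 (0.86), Gm49730 (0.86), Dhx58 (0.85), Ddx60 (0.85) and Gm12250 (0.84).

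Ifit1, Ifit2 and Ifit3 lie in 1 cluster on chromosome 19, and 41.1% of the 75-base words of Ifit3 are also in its copy Ifit3b, so reads of these genes could have been divided between them. Of Ifit1 5.19% are shared with Ifit1bl2 and of Gbp3 2.06% with Gbp7. Of the other 6 genes none are shared with the annotated transcripts of any other gene. Ifit3b had 1.81 to 5.40 TPM (median 2.69) in Esr1 libraries, against 0.56 to 3.34 TPM (median 1.16) in CYP19A1 libraries, and was higher by 0.84 over all strata with a limma adjusted p of 3.07e-08. The sum of Ifit3 and Ifit3b was 6.43 to 25.6 TPM (median 9.95) in Esr1 libraries, against 1.70 to 7.04 TPM (median 4.26) in CYP19A1 libraries. These ranges overlap at their ends, so the full separation of the models seen for Ifit3 did not hold for the sum in the deposited TPM. The overlap comes from replicate 3 of the Esr1 glands of 30 months, which has 50.3% of its TPM on ribosomal RNA. The sum was not examined with rescaled TPM. Other genes around the cluster were higher in Esr1 glands too. Over all strata, Fas, a death receptor gene whose left end lies 260 kb to the left of that of Ifit2, was higher by 0.73, Lipa, a lysosomal lipase 58.4 kb to the left, by 0.98, and Slc16a12, a transporter 118 kb to the right, by 0.83. Their limma adjusted p were 4.21e-06, 0.000646 and 6.63e-05. Pank1, a pantothenate kinase 256 kb to the right, differed by 0.16, with a limma adjusted p of 0.431. Of the 21 annotated genes within 250 kb of the cluster 8 were tested and 7 were higher, Ifit1, Ifit2, Ifit3 and Ifit3b included, where 19.2% of all genes were.

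**Figure D5:**
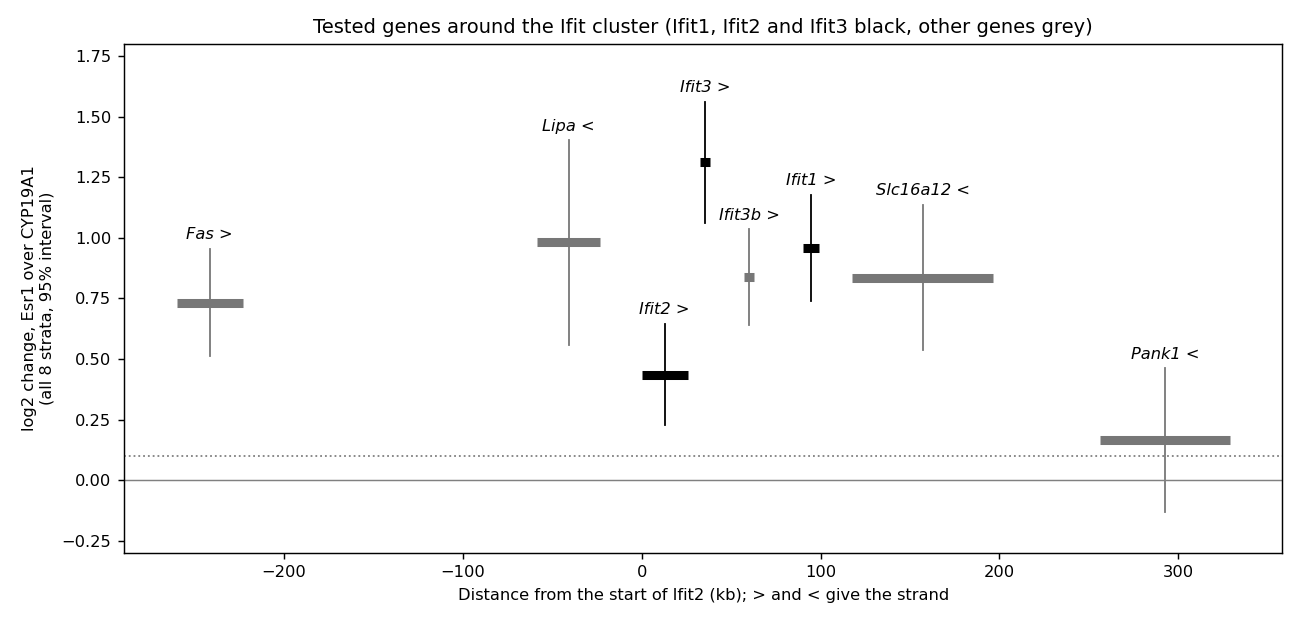
Log2 difference between Esr1 and CYP19A1 glands over all strata for the 8 tested genes around the Ifit cluster, by distance from the Ifit2 start (kb), with the extent of each gene as a horizontal bar, 95% intervals as vertical lines and the median of all genes as a dotted line. From Fas (0.73) to Slc16a12 (0.83) all 7 genes are above 0, Ifit3 is the highest (1.31), and Pank1 (0.16) spans 0.

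The rest of the pathway was read from lists of genes. Of 49 tested interferon-stimulated genes other than the 9, 4 were higher and none lower in uninduced Esr1 than uninduced CYP19A1 glands: Parp9 (1.00), which helps read ADP-ribosylation, Rtp4 (0.81), Lgals3bp (0.80) and Cmpk2 (0.77), a mitochondrial nucleotide kinase that neighbours Rsad2. In induced glands 15 were higher and none lower, with Parp9 (0.97), Slfn9 (0.96), Tap1 (0.77), a peptide transporter for antigen display, Cmpk2 (0.76), Bst2 (0.75), which tethers budding virus, and Lgals3bp (0.69) furthest. Of all genes, 1.97% were higher without and 11.4% with induction. The median log2 difference of this list was 0.37 and 0.30, and with rescaled TPM 15 were higher without induction, while 16 were higher and 4 lower with induction. Of all 20209 genes, 1676 were higher and 1688 lower without induction with rescaled TPM, and 3165 higher and 2983 lower with induction. These are also the background for the rescaled counts of the lists that follow. Ifi27l2a, the most abundant of the list, had a mean of 560 TPM and Ifitm3, the next, 74.9 TPM, so a sum over the list mostly reads Ifi27l2a.

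Interferon transcripts themselves were near the floor. Of 21 ligand genes 1 was tested, Ifnk, an epithelial type I interferon, which had 0.12 to 3.46 TPM and did not pass in either comparison. Ifnb1 was listed at 0 in 45 libraries and at most at 0.05 TPM, and Ifna5, Ifna9, Ifna15, Ifnl2 and Ifnl3 were at 0 in all. Of 6 receptor genes none passed without induction and 2 were higher in induced Esr1 glands, Ifnlr1 (0.70), the receptor chain for lambda interferons, and Ifngr1 (0.54). Ifnar1 and Ifnar2, the chains for type I interferons, had median levels of 13.5 and 23.2 TPM and did not pass. Of 15 signalling genes none passed in the uninduced or the induced comparison, while with rescaled TPM 3 were higher and 1 lower in uninduced glands, and 1 was higher and 3 lower in induced glands. Averaged over all strata, Irf9 (0.47), a DNA-binding factor of the interferon response, was higher in Esr1 glands. With rescaled TPM 2 of the 15 signalling genes were higher and 4 lower over all strata, with a list median of 0.004. Of all 20209 genes 4085 were higher and 4010 lower there. Of 16 nucleic acid sensors and adaptors, Ifih1, a sensor of long double-stranded RNA, was higher in uninduced Esr1 glands (0.79, with a limma adjusted p of 0.00642). In induced glands 5 were higher: Ifih1 (0.82), Ddx58 (0.54), which senses short RNA ends, Rnaseh2b (0.48), Myd88 (0.45) and Trex1 (0.39), a DNase that clears cytosolic DNA. With rescaled TPM 3 sensors were higher and 1 lower in uninduced glands, and 5 were higher and 2 lower in induced glands.

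Genes better known as targets of interferon gamma, which share elements with the type I response, were counted beside Gbp3. Of 24 tested GTPases and chemokines, 7 were higher and none lower in uninduced Esr1 glands (1.97% of all genes were higher), with Gbp10 (1.66), Gbp9 (1.33), Iigp1 (1.16), Gbp8 (0.96), Gbp11 (0.94) and Igtp (0.90) furthest. In induced glands 5 were higher (11.4% of all genes were), namely Gbp9 (1.14), Gbp10 (0.86), Ifi47 (0.78), Gbp8 (0.71) and Irgm2 (0.48). Gbp6 was lower by 1.23 in induced Esr1 glands, with a limma adjusted p of 7.13e-05, and several Gbp genes are close copies whose reads can be shared. With rescaled TPM 10 of the list were higher and 1 lower in uninduced glands, and 5 were higher and 4 lower in induced glands. The median of the list in induced glands was 0.001, or -0.15 with rescaled TPM.

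Markers of cell types moved with the model in induced glands. There 7 of 8 luminal epithelial, 3 of 5 basal epithelial, 5 of 8 T cell and 3 of 10 macrophage markers were higher in Esr1 glands, while in uninduced glands no gene of these lists passed. With rescaled TPM 2 macrophage markers were higher and 1 basal marker lower in uninduced glands, and 4 macrophage markers were higher in induced glands. Endothelial Kdr was lower in induced Esr1 glands (-0.53, with a limma adjusted p of 0.0132), and Kdr, Emcn and Tek were lower over all strata, as were the adipocyte markers Plin1 (-0.44) and Retn (-0.41). All 5 endothelial markers were lower with rescaled TPM in both comparisons. Over all libraries the summed luminal markers were 137 to 833 TPM (median 475) in Esr1, against 76.8 to 604 TPM (median 198) in CYP19A1 libraries. Summed T cell markers were 8.33 to 54.1 TPM (median 20.3) in Esr1, against 2.85 to 38.9 TPM (median 12.7) in CYP19A1 libraries. Macrophage markers summed to 195 to 942 TPM (median 504) in Esr1, against 86.6 to 855 TPM (median 319) in CYP19A1 libraries. Of 5 tested markers of plasmacytoid dendritic cells, the main blood-borne source of interferon alpha, Siglech passed over all strata and was lower in Esr1 glands (-0.38, with a limma adjusted p of 0.0117), while the median of the 5 was -0.01. The part of these cell types in the differences of the 9 genes was not tested.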

How the data were processed

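RNA was measured in 48 libraries, 3 in each of 16 groups. Per the labels' protocols, stranded libraries were made from 1 microgram of total RNA after removal of ribosomal RNA and sequenced on a NextSeq 550. The submitters' processing notes name RSEM 1.3.1 and STAR 2.7.9a with mm10, and for read trimming and quality Trim Galore 0.6.5 and FastQC 0.11.9. The deposited values are TPM, and each library sums to 1 fixed total, so depth is unknown. Positions are those of GENCODE M21, which 55094 identifiers match with version and 55394 without. Promoter windows are RefSeq's.

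Values were taken as log2(TPM + 1), and limma 3.58.1 (trend, two-sided) in R 4.3.3 fitted group means to the 20209 genes over all libraries at once. Fold changes on this scale understate changes of scarce genes. The threshold was an adjusted p (Benjamini-Hochberg, over all genes tested) under 0.05. The method was tested on simulated data. The members and lists were chosen with earlier results of these data known, and the comparisons over all strata, within the naming patterns and of older with younger groups were added after values were seen. All 9 members are named, and of each list those that passed, up to 6 by size, or else the 2 most abundant, and 1 such list gene is not reported here. Same-numbered replicates deviated together in 1 of 14 comparisons, so the numbers were not taken as pairs. Alternatives were another pseudocount, no filter, 2 rescalings, compared groups alone, a replicate block, omission of libraries rich in ribosomal RNA and omission of each library.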

Additional observations from a re-analysis of the deposited data

Results flagged for a closer look

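For 7 of the 9 genes, the difference between the Esr1 and CYP19A1 models was greater at 12 and 18 months than at 24 and 30 months, in a test of that difference itself (limma, adjusted p from 0.00849 to 0.0433). On the log2(TPM + 1) scale the difference of the differences was 0.93 for Ifi44, 0.87 for Ifit1, 0.85 for Ifit3, 0.73 for Gbp3, 0.66 for Usp18, 0.58 for Ifit2 and 0.56 for Rsad2. The median over all genes tested was 0.43, and 0 of the 9 passed after rescaling by median of ratios or per protein-coding total. The ages also differ in the naming pattern of their libraries, and the 3 CYP19A1 libraries of 1 week at 12 months are rich in ribosomal RNA. The part of these in the difference was not tested.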

How the results depend on the processing

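Members past the threshold in the model comparisons depended on the settings as follows. In uninduced glands 4 passed, 2 with the compared groups fitted alone, 2 without the libraries rich in ribosomal RNA, and 2 to 6 without single libraries (2 without replicate 2 of uninduced 12-month Esr1 glands, 6 without replicate 2 of the CYP19A1 ones). In induced glands 6 passed, and 5 to 6 without single libraries. Leaving out the libraries rich in ribosomal RNA empties a CYP19A1 group, and without that stratum 2 passed in induced glands, 4 over all strata (7 before) and 3 at 12 and 18 months (9 before). Usp18 then turned to -0.074 at 12 and 18 months (adjusted p 0.829). Ifit1 and Ifit3 stayed past the threshold in the uninduced, the induced and the all-strata comparison under every setting run. Without single libraries the counts were 6 to 7 over all strata, 8 to 9 at 12 and 18 months and 1 to 2 at 24 and 30 months, where the replicate block and the omission of rRNA-rich libraries each gave 1 of 2 (Ifit3). For the difference between the ages 7 passed, 3 with no filter, 0 with either rescaling and 3 to 9 without single libraries. For older against younger Esr1 glands 8 passed, 3 rescaled and 5 to 9 without single libraries, and for CYP19A1 glands 0 to 2. Within models, single omissions gave 0 to 1 for CYP19A1 after 1 week at 12 months, for CYP19A1 at 24 against 12 months and for the difference of 1-week responses, and 0 elsewhere. Over all genes, 596 passed in uninduced glands and 3364 rescaled, and 2885 and 6148 in induced glands. TPM give no depth, so scarce genes carry unknown counting error. The cause of these changes was not tested.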
